A study of Mus musculus with 100 samples.

Results

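Lin28a, Lin28b, Trim71, L1td1, Igf2bp1, Igf2bp2, Igf2bp3, Hmga1 and Hmga2 are 9 of the 25965 genes measured by RNA-seq in this series, picked by name as the Lin28 genes, well-known targets of the let-7 microRNAs, and RNA-binding factors that act beside them. All 9 passed the filter on low values. The study made induced pluripotent stem cells (iPSCs) from mouse embryonic fibroblasts (MEFs) of F1 hybrid embryos, with an i4F-BL6 mother and a CAST father. The mother's transgene is a cassette of Oct4, Sox2, Klf4 and c-Myc that doxycycline turns on through the rtTA activator at the Rosa26 locus, and the fibroblasts and the KSR lines all come from this cross. Cells were reprogrammed with doxycycline in medium containing knockout serum replacement (KSR), and the picked clones were then expanded on feeder cells without doxycycline. The 6 groups had 3 libraries each, namely M KSR5 and M KSR3 from male MEFs, F KSR4 and F KSR2 from female MEFs, female MEF itself, and TX 2i ESC. The last is the female TX1072 embryonic stem cell line (BL6 mother, CAST father) grown in serum and LIF with inhibitors of MEK and GSK3. Each KSR line is 1 clone, lines of the same sex came from fibroblasts of that sex, and male MEFs were not part of the RNA-seq, so clone, donor and sex cannot be told apart. P-values measure the spread between libraries of a line and not between independent reprogramming experiments.

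let-7 microRNAs pair through their seed, bases 2 to 8, with sites in the 3′UTR of a messenger RNA and lower its stability and translation. LIN28A and LIN28B bind let-7 precursors and block their maturation, and both Lin28 genes are let-7 targets themselves, which makes the pair a loop of mutual repression. Mature let-7 is abundant in differentiated cells such as fibroblasts and scarce in pluripotent cells, where Lin28a is expressed. The libraries were made from polyadenylated RNA, so mature let-7 was not measured, and no gene symbol of the table starts with Mirlet7.

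The mature let-7 sequences are shown because they define the sites searched for in the members. RefSeq (GRCm38.p6) gave the 11 mouse entries used, on chromosomes 9, 10, 13, 15, 16, 17 and X. Any entry elsewhere was left out, whatever its seed. The 11 entries gave 9 distinct mature sequences, all with the same seed. Capitals mark the seed in 4 of them:
let-7a-5p: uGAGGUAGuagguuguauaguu
let-7d-5p: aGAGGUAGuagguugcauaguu
let-7g-5p: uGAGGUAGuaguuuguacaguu
miR-98-5p: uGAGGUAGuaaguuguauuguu

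The reverse complement of the seed, CTACCTC, was searched on the transcribed strand of the longest annotated 3′UTR of each gene in the GRCm38 reference sequence, and CTACCTCA was counted as its 8-base form. Of 20963 3′UTRs, 8.96% held the 7-base match and 3.02% the 8-base match. Among the 9 genes, 8 held the 7-base match and 7 the 8-base match, and L1td1, with a 3′UTR of 364 bases, held neither. Lin28b, Trim71, Igf2bp1 and Hmga2 had 4 matches each, Lin28a had 2, and Igf2bp2, Igf2bp3 and Hmga1 had 1 each. Most of these 3′UTRs are long, and of 3′UTRs from 20% shorter to 25% longer than the gene's own, 34.3% held a match for Igf2bp1, 29.9% for Trim71, 24.0% for Lin28b, 16.1% for Hmga2 and 14.8% for Lin28a. A count of matches as high as the gene's own was found in 0.166% of the 3′UTRs of like length for Igf2bp1, 0.362% for Trim71, 0.223% for Lin28b, 0.0829% for Hmga2 and 2.04% for Lin28a. The single match was common for its length, in 12.0% of the 3′UTRs for Igf2bp2, 13.3% for Igf2bp3 and 8.10% for Hmga1. Most of these genes were picked as known targets, so the counts describe them and are no test of the choice. A match is a run of letters and not a measured binding site. One 30-base stretch per gene shows the match, in capitals, at its 3′ end:
Lin28a (chr4:134005189-134005218, minus strand): ttggagtgcacagcctgttgaaCTACCTCA
Lin28b (chr10:45381022-45381051, minus strand): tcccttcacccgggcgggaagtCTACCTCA
Trim71 (chr9:114512472-114512501, minus strand): aaagtacaacattgcctaagtcCTACCTCA
Igf2bp1 (chr11:95961778-95961807, minus strand): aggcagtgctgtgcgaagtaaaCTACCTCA
Igf2bp2 (chr16:22059473-22059502, minus strand): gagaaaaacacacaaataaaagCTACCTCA
Igf2bp3 (chr6:49086787-49086816, minus strand): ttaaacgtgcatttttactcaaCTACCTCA
Hmga2 (chr10:120364224-120364253, minus strand): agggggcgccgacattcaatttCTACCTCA
Hmga1 (chr17:27563270-27563299, plus strand): catcttctcctctgttcacaaaCTACCTCt

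The Hmga1 match ends in t and is the 7-base form only. The Hmga2 stretch lies close to the stop codon, with its match starting at base 58 of the 3′UTR.

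**Figure D1:**
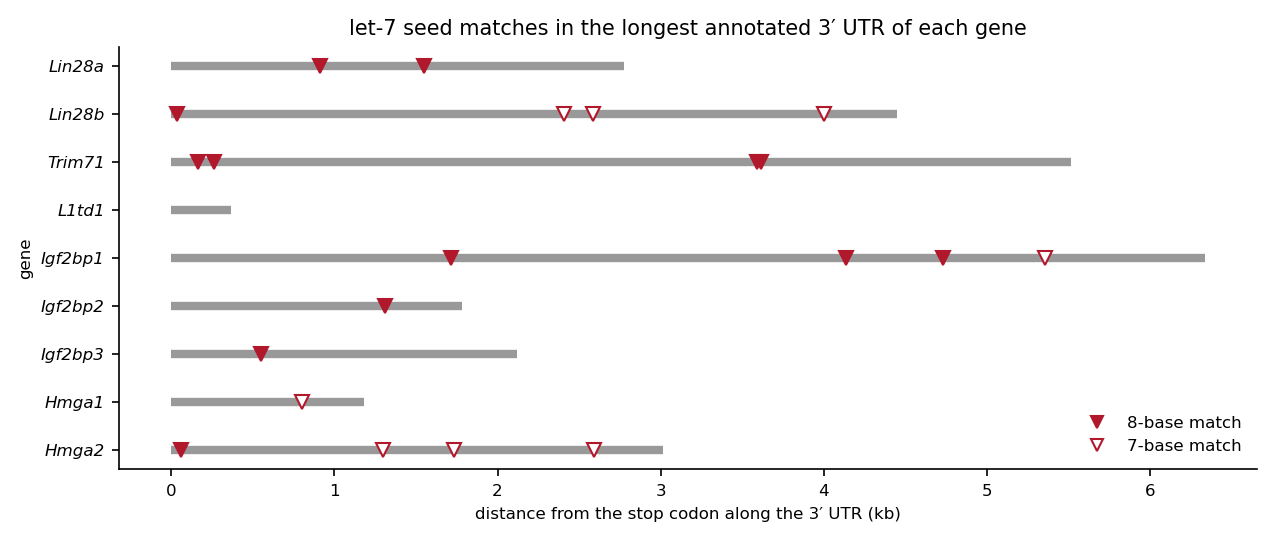
Position of let-7 seed matches along the longest 3′UTR of each of the 9 genes, as distance from the stop codon in kb; grey bars span the 3′UTR, filled marks are 8-base matches and open marks 7-base matches. Lin28b, Trim71, Igf2bp1 and Hmga2 carry 4 matches each, and L1td1 carries none.

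The libraries held 13183036 to 17921280 reads on genes (median 15722711), so that 1 read stood at a log2 value between -4.29 and -3.89. Levels below are log2 RPM, that is reads per 1e+06 mapped to genes, each relative to the total of its own library. Replicates of a group differed by more than counting noise in every pair. The 12 KSR-iPSC libraries and the 3 TX 2i ESC libraries had reads for 12 of 12 pluripotency markers, of which Pou5f1, Sox2 and Klf4 are also on the cassette, and a summed level of 4274 to 6719 and 6804 to 8785 RPM, against 70.9 to 119 RPM in MEF. Summed over 15 fibroblast markers, MEF had 31056 to 42071 RPM, KSR-iPSC 556 to 1806 and TX 2i ESC 849 to 1248. Early lineage markers summed to 54.2 to 149 RPM in KSR-iPSC, 74.1 to 87.7 in TX 2i ESC and 84.7 to 205 in MEF.

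Lin28a (ENSMUSG00000050966, chr4:134003330-134018841, minus strand) encodes the LIN28 protein of early embryonic and pluripotent cells. It had 0 reads in every MEF library, which allows up to 3 reads per library. The log2 level was 7.62, 8.15 and 7.67 for M KSR5, 7.05, 6.85 and 6.86 for M KSR3, 8.06, 6.62 and 7.36 for F KSR4 and 8.02, 8.32 and 7.21 for F KSR2. In TX 2i ESC it was 5.61, 5.22 and 5.65. Every KSR-iPSC library was thus above every TX 2i ESC library, and the groups did not overlap. With MEF held at 3 reads in each library, TX 2i ESC was at least 276-fold higher. The bound for M KSR3, the lowest KSR line, was at least 737-fold, and F KSR2 stood at least 1471-fold higher. In a bulk library, fewer expressing cells and less RNA per cell cannot be told apart.

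Lin28b (ENSMUSG00000063804, chr10:45376620-45470201, minus strand), the second LIN28 gene, was read 0, 7 and 6 times in the MEF libraries. It stood at 4.84, 4.25 and 4.36 for TX 2i ESC, 5.46, 5.64 and 5.14 for M KSR5, 5.30, 5.03 and 5.15 for M KSR3, 5.09, 3.59 and 4.33 for F KSR4 and 5.06, 5.41 and 4.55 for F KSR2. Unlike for Lin28a, the TX 2i ESC values lay within the range of the KSR-iPSC values. The ratio of mean RPM to MEF was 192 for M KSR5 and 98.6 for F KSR4, the ends of the KSR range, and 102 for TX 2i ESC. Corrected for exon length, Lin28a was the higher of the pair in KSR-iPSC, with a mean log2 level of 5.48 RPM per kb against 1.80 for Lin28b.

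Trim71 (ENSMUSG00000079259, chr9:114511275-114564369, minus strand), the mouse LIN-41, is an RNA-binding ubiquitin ligase and one of the earliest known let-7 targets. MEF libraries held 1, 1 and 7 reads of it. The log2 level was 5.43, 4.90 and 5.60 for TX 2i ESC, 6.28, 5.45 and 5.72 for M KSR5, 5.72, 5.51 and 5.17 for M KSR3, 6.14, 4.91 and 2.97 for F KSR4 and 6.69, 5.77 and 6.74 for F KSR2. The third F KSR4 library, with 116 reads, was the lowest of the 15 pluripotent libraries, and the remaining values overlapped between groups.

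L1td1 (ENSMUSG00000087166, chr4:98726734-98738480, plus strand) encodes an RNA-binding protein derived from the LINE-1 transposon and found with LIN28 in pluripotent cells. It had 0, 1 and 0 reads in MEF. In KSR-iPSC it stood at 9.63, 9.73 and 9.35 for M KSR5, 9.24, 9.34 and 9.36 for M KSR3, 9.31, 5.40 and 8.66 for F KSR4 and 9.28, 9.03 and 9.32 for F KSR2. TX 2i ESC had 9.34, 8.49 and 9.02. The second F KSR4 library was far below all others, and it was also the KSR-iPSC library with the highest fibroblast sum, 1806 RPM. The median fibroblast marker was instead highest in the third M KSR5 library, at 0.854% of its MEF mean against 0.532% in the second F KSR4 library. The part of fibroblast RNA in the low value was not tested. The ratio to MEF rests on 1 MEF read and was 3.27e+04 in F KSR2, with a counting interval of 5872 to 1.29e+06, and 2.80e+04 (5021 to 1.10e+06) in TX 2i ESC.

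The IGF2BP proteins bind messenger RNAs, Igf2 among them, and affect their stability, localisation and translation. Igf2bp1 (ENSMUSG00000013415, chr11:95957163-96005940, minus strand) was well expressed in MEF at 5.99, 5.84 and 5.82. It was at 9.19, 8.54 and 9.13 for TX 2i ESC, 9.08, 9.09 and 8.94 for M KSR5, 9.09, 8.97 and 8.92 for M KSR3, 9.33, 8.11 and 8.36 for F KSR4 and 9.08, 8.83 and 9.20 for F KSR2. All pluripotent libraries were above all MEF libraries, and the ratio of mean RPM was 7.04 to 8.94 in the KSR lines and 8.53 in TX 2i ESC.

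Igf2bp2 (ENSMUSG00000033581, chr16:22059009-22163299, minus strand) did not separate MEF from the KSR lines. It was at 7.06, 7.08 and 6.80 for MEF, 7.05, 6.17 and 7.36 for M KSR5, 6.46, 6.46 and 6.64 for M KSR3, 6.25, 7.40 and 7.06 for F KSR4 and 7.06, 6.95 and 6.80 for F KSR2. These groups overlapped, whereas TX 2i ESC, at 7.98, 8.29 and 7.90, was above every other library and 2.11 times the MEF mean.

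Igf2bp3 (ENSMUSG00000029814, chr6:49085221-49214954, minus strand), found by its symbol since the identifier column of the table held another identifier in its row, had 6.54, 6.28 and 6.40 in MEF and 6.34, 6.36 and 6.06 in TX 2i ESC. The KSR lines spread around these values, with 6.07, 6.02 and 6.01 for M KSR5, 6.12, 4.85 and 5.14 for M KSR3, 5.71, 5.83 and 6.17 for F KSR4 and 7.23, 7.10 and 6.64 for F KSR2. F KSR2 was above all other groups without overlap.

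The HMGA proteins are chromatin proteins that bend AT-rich DNA. Hmga1 (ENSMUSG00000046711, chr17:27556620-27563674, plus strand) stood at 6.90, 7.37 and 7.43 in MEF. It was higher in every other library, at 8.56, 8.63 and 8.38 for TX 2i ESC, 8.87, 9.01 and 8.70 for M KSR5, 8.48, 8.30 and 8.28 for M KSR3, 8.71, 9.04 and 8.91 for F KSR4 and 8.65, 8.98 and 8.51 for F KSR2. The M KSR3 libraries were below all libraries of the other KSR lines. The values of Hmga1 are uncertain, since the assignment of its reads could not be checked. Igf2bp1 and the next gene, Hmga2, each overlap a microRNA gene on the same strand, Mir3063 and Mir763.

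Hmga2 (ENSMUSG00000056758, chr10:120361275-120476469, minus strand), the best studied let-7 target of mammals, was the member highest per kb of exon in MEF, at a mean log2 level of 6.19. Its log2 RPM was 8.37, 9.27 and 9.21 in MEF, 7.43, 7.18 and 6.18 for TX 2i ESC, 5.65, 5.88 and 6.48 for M KSR5, 6.09, 6.70 and 6.63 for M KSR3, 7.18, 6.75 and 6.46 for F KSR4 and 6.39, 6.50 and 5.99 for F KSR2. All pluripotent libraries were below all MEF libraries, yet none came near 0. Mean RPM was 12.9% of MEF in M KSR5, 22.1% in F KSR4 and 25.4% in TX 2i ESC. In the same libraries the median fibroblast marker was at 0.0408% to 0.854% of its MEF mean in KSR-iPSC and at 0.0352% to 0.0799% in TX 2i ESC. Single markers varied widely, with log2 differences of KSR-iPSC against MEF from -3.43 (Fn1) to -12.17 (Postn). The part of remaining fibroblast RNA in the Hmga2 level was not tested.

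**Figure D2:**
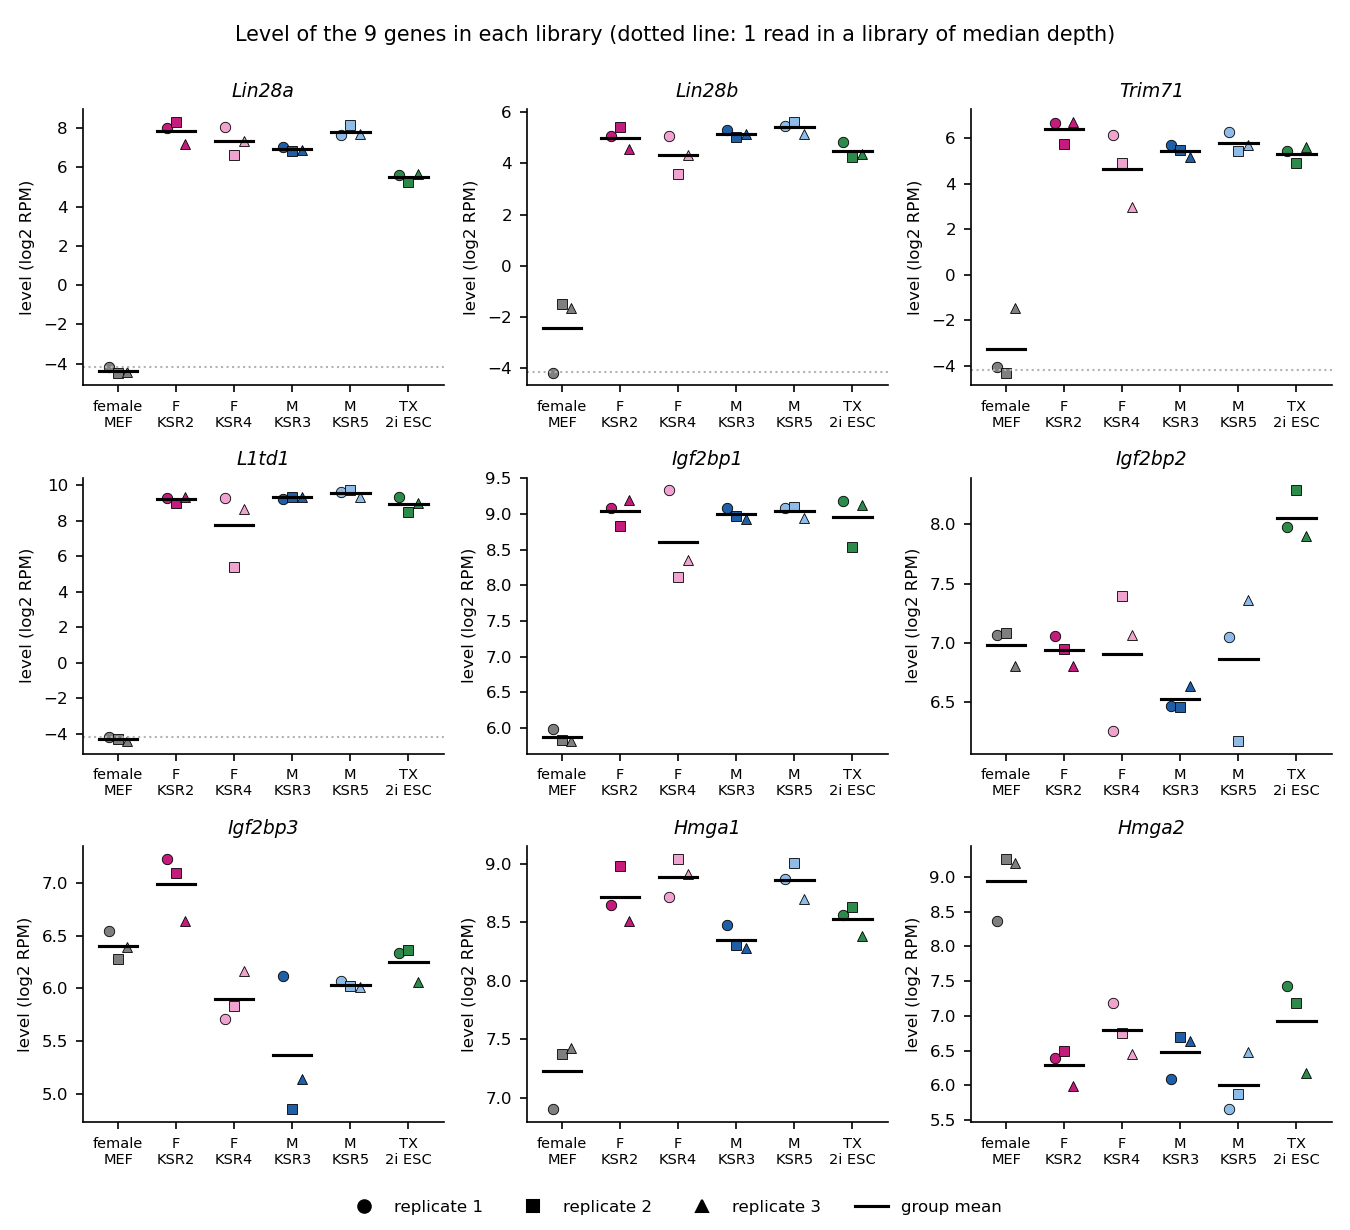
Log2 RPM of the 9 genes in each of the 18 libraries by group, with 1 point per library and a bar at the group mean; the dotted line is the value of 1 read in a library of median depth. Lin28a, Lin28b, Trim71 and L1td1 sit near that line in MEF, Hmga2 is highest in MEF, and Igf2bp2 is highest in TX 2i ESC.

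Per kb of exon, the order in KSR-iPSC was Hmga1 at a mean log2 level of 7.62, L1td1 at 7.31, Igf2bp1 at 5.64, Lin28a at 5.48, Igf2bp2 at 3.92, Hmga2 at 3.63, Igf2bp3 at 3.05, Trim71 at 2.37 and Lin28b at 1.80. The place of Trim71 is uncertain. Its annotated 3′UTR reaches base 114507133 of the chromosome, but the span given for its reads stops at 114511275. Its level per kb may therefore be too low. In MEF, Hmga2 and Hmga1 led at 6.19 and 6.15, followed by Igf2bp2 at 4.10, Igf2bp3 at 3.38 and Igf2bp1 at 2.61. When the 6 groups were ordered by level within each gene, neighbours were apart without overlap between MEF and a neighbouring group for all 9 genes, and elsewhere for Lin28a alone, between TX 2i ESC and M KSR3 at a difference in means of 1.43. The share of all genes with such gaps was not counted. Calls of KSR-iPSC against MEF, given below, put 41.8% of all genes higher and 32.5% lower, so the gaps are a description.

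The comparison of the 4 KSR lines with MEF asks how these genes differ between the reprogrammed cells and the starting cell type. The MEF libraries are female while the KSR lines include male ones, and the culture medium differs as well. Cell type, medium and sex cannot be told apart in this comparison. Differences are on the log2 scale, from limma fitted to 14632 genes in all 18 libraries, and a gene was called at a Benjamini-Hochberg adjusted p of at most 0.05. Of the 9 genes 6 were called higher and 1 lower, on a background of 41.8% of all genes called higher and 32.5% called lower. The median difference was 3.03 over the 9 genes and 0.22 over all genes tested. Setting the median of each library to 0 moved the all-gene median from 0.22 to 0.35 in this comparison and from 0.14 to 0.01 between F KSR2 and F KSR4, and by under 0.1 in the others.

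Lin28a rose by 11.83 (SE 0.24, limma adjusted p = 5.88e-17), Lin28b by 7.42 (SE 0.42, 4.42e-11), Trim71 by 8.85 (SE 0.54, 1.32e-10) and L1td1 by 13.27 (SE 0.48, 1.34e-13). The size of these differences depends on how the MEF libraries near 0 reads are held, and they are given for their call. Igf2bp1 rose by 3.03 (SE 0.19, adjusted p = 1.92e-10) and Hmga1 by 1.47 (SE 0.13, 2.54e-08). Hmga2 fell by 2.56 (SE 0.25, adjusted p = 8.00e-08), the only member with a lower call. The difference of Igf2bp2 was -0.18 (95% interval -0.63 to 0.28, adjusted p = 0.466) and that of Igf2bp3 -0.33 (-0.75 to 0.08, 0.138). Without the first M KSR3 library, Igf2bp3 was called lower at -0.42 (adjusted p = 0.0136).

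TX 2i ESC against MEF shares the MEF libraries with the comparison above, so the values stand side by side and do not count as a repeat. Here 7 genes were called higher and 1 lower, on a background of 37.5% of genes called higher and 29.0% called lower, and the median difference was 3.07 over the 9 genes and 0.20 over all genes tested. Lin28a differed by 9.84, Lin28b by 6.93, Trim71 by 8.57, L1td1 by 13.24, Igf2bp1 by 3.07 and Hmga1 by 1.29 (limma adjusted p between 4.54e-14 and 3.41e-06). Igf2bp2 rose by 1.07 (SE 0.27, adjusted p = 0.00226). Hmga2 fell by 2.02 (adjusted p = 2.96e-05), and Igf2bp3 differed by -0.15 (95% interval -0.68 to 0.37, 0.605).

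KSR-iPSC against TX 2i ESC sets 2 kinds of pluripotent cells side by side. The medium and the origin of the cells differ, and the KSR lines include male ones while TX 2i ESC is female. Medium, origin and sex cannot be told apart. Lin28a was higher in KSR-iPSC by 1.99 (SE 0.24, 95% interval 1.47 to 2.50, limma adjusted p = 2.57e-05). Igf2bp2 was lower by 1.25 in KSR-iPSC, a difference of -1.25 (SE 0.22, 95% interval -1.71 to -0.80, adjusted p = 0.00052). These were the 2 calls among the 9 genes, on a background of 23.0% of all genes called in either direction. In TX 2i ESC the maternal share of reads was 32.8% for Igf2bp2 and 34.9% for chromosome 16. It was 40.7% for Lin28a and 32.4% for chromosome 4. Whether these shares bear on the level of either gene was not tested. The other 7 genes were not called, and their intervals leave room for differences of different size. Igf2bp1 had the narrowest after Hmga1, with -0.03 (95% interval -0.43 to 0.37), and Hmga1 had 0.18 (-0.10 to 0.46). Lin28b had 0.49 (-0.39 to 1.38), Trim71 0.28 (-0.86 to 1.42), L1td1 0.02 (-0.99 to 1.04) and Igf2bp3 -0.18 (-0.59 to 0.24). Hmga2 differed by -0.54 (-1.08 to -0.00, adjusted p = 0.144) and was called lower without the third TX 2i ESC library, at -0.91 (adjusted p = 0.0253).

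**Figure D3:**
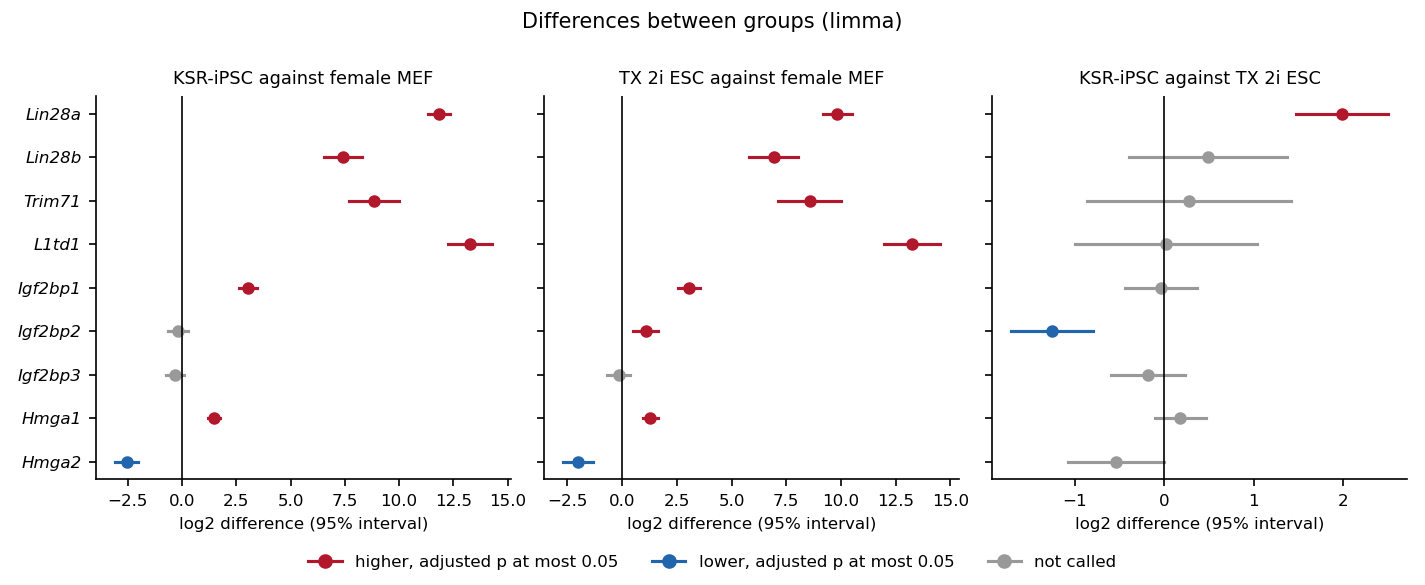
Log2 difference of each of the 9 genes for KSR-iPSC against MEF, TX 2i ESC against MEF and KSR-iPSC against TX 2i ESC, with 95% intervals from limma; red is called higher, blue called lower and grey not called. Against TX 2i ESC, Lin28a (1.99) is higher and Igf2bp2 (-1.25) lower in KSR-iPSC, and the other 7 genes are grey.

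Between lines of the same sex, Igf2bp3 was the 1 gene called, higher in F KSR2 than in F KSR4 by 1.09 (SE 0.25, 95% interval 0.56 to 1.61, limma adjusted p = 0.0422), where 1.14% of all genes were called. That call is close to the threshold, with adjusted p between 0.00788 and 0.163 over 25 alternatives, of which 9 kept it. In F KSR2 the maternal share of reads was 98.0% for Igf2bp3 and 96.8% for chromosome 6, and whether this bears on the level was not tested. Trim71 differed by 1.73 (95% interval 0.28 to 3.17, adjusted p = 0.213) and L1td1 by 1.42 (0.14 to 2.70, 0.249). Without the first F KSR4 library 4 genes were called, namely Igf2bp3, Trim71 at 2.46 (adjusted p = 0.0300), L1td1 at 2.18 (0.0223) and Igf2bp1 at 0.80 (0.0128). Between M KSR3 and M KSR5, limma called 0 of the 9 genes against 4.48% of all genes. Unadjusted p was under 0.05 for 3 of them, and voom also called 0. The difference of Lin28a was -0.89 (95% interval -1.54 to -0.24, adjusted p = 0.113), and leaving out the second F KSR4 library brought its adjusted p to 0.0408. Of 10 early lineage markers tested, 2 were called higher in M KSR3 and 0 lower, while the median difference over the 10 was -0.73. The 2 called were the endoderm factors Gata4, at a log2 level of 4.77 to 5.18 in M KSR3 and 2.16 to 3.53 in M KSR5, and Gata6, at 5.25 to 5.55 and 1.97 to 3.36. Their part in the values of these lines was not tested. Igf2bp3 differed by -0.66 (adjusted p = 0.151) and by -1.03 without the first M KSR3 library (0.0135).

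Female against male KSR-iPSC, fitted to the 12 KSR libraries, gave 0 calls among the 9 genes by limma and by voom, while 2.87% of 13609 genes were called. Unadjusted p was under 0.05 for 2 of them. That fit takes the 6 libraries of 2 clones per sex as replicates. With the line as a random effect 138 genes were called in place of 390, and with line means, 2 against 2, 4 genes were called, and 0 of the 9 in either. Igf2bp3 was higher in female lines by 0.74 (95% interval 0.12 to 1.37, adjusted p = 0.186), which in the fit of all 18 libraries was a call (adjusted p = 0.0126). Lin28b differed by -0.61 (-1.16 to -0.07, adjusted p = 0.211) and L1td1 by -0.94 (-2.01 to 0.13, 0.331). The F KSR4 values of Igf2bp3 (5.71 to 6.17) overlapped the male values (4.85 to 6.12), and the F KSR2 values (6.64 to 7.23) did not.

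Genes of 4 related lists give the setting, and their counts stand beside the same background as above, 41.8% of all genes higher and 32.5% lower against MEF, and 23.0% called in either direction against TX 2i ESC. Of 16 genes for microRNA processing, 8 were higher, 4 lower and 4 not called in KSR-iPSC against MEF, with a median difference of 0.42. Drosha, the nuclear enzyme that cuts primary microRNAs, rose by 2.08 (SE 0.21, limma adjusted p = 1.02e-07). Dis3l2, the exonuclease that degrades let-7 precursors marked by LIN28 action, rose by 1.51 (SE 0.25, adjusted p = 2.79e-05). Ago4 fell by 2.02 (SE 0.59, adjusted p = 0.00547), and Prkra, a partner of Dicer, fell by 1.04 (SE 0.34, 0.0110). The call of Prkra was lost without the first MEF library (adjusted p = 0.0517). Against TX 2i ESC, 2 of the 16 were higher and 0 lower. Drosha was higher by 0.75 (limma adjusted p = 0.0165, 0.000653 to 0.115 over 25 alternatives) and the RNA helicase Ddx5 by 0.49 (0.0468, 0.0162 to 0.270).

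Of 20 other known let-7 targets, 8 were higher, 6 lower and 6 not called against MEF, with a median of -0.19, beside 41.8% higher and 32.5% lower among all genes. A 7-base seed match was found in 13 of these 20 and in 4 of the 16 processing genes. It was found in 1 of 26 genes for other RNA-binding proteins and 1 of 8 for other HMG proteins. The 20 were chosen as known targets, so these counts describe them and are no test. Mycn, a MYC family factor, rose by 6.64 (SE 0.29, limma adjusted p = 1.87e-12), and Nr6a1, the germ cell nuclear factor, rose by 4.54 (SE 0.23). Thbs1, a secreted matrix protein of fibroblasts, fell by 10.76 (SE 1.17, adjusted p = 2.43e-07), and the cyclin Ccnd2 fell by 7.32 (SE 0.72). Against TX 2i ESC, 4 of the 20 were higher and 1 lower, beside 23.0% of all genes called either way. Ccnd2, which was low in TX 2i ESC (mean log2 level -2.13, lowest library -4.38), was called higher at 4.10 (limma adjusted p = 0.000564), a size that ran from 1.96 to 4.84 over 25 alternatives. Thbs1, also low in TX 2i ESC (mean log2 level -1.09, lowest library -2.64), was higher by 3.54 (0.0374, 0.0132 to 0.234 over 25 alternatives). The size of the Thbs1 difference ran from 2.16 to 4.69. Insr, the insulin receptor, was lower with a difference of -0.99 (0.0358, 0.00503 to 0.148 over the same alternatives).

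Of 26 other RNA-binding proteins, 15 were higher, 6 lower and 5 not called against MEF, with a median of 0.69, beside 41.8% and 32.5% of all genes and an all-gene median of 0.22. Mbnl1 and Mbnl2, splicing factors of differentiated cells, fell by 3.66 and 2.88. Dazl, a germ cell translation factor, and Esrp1, an epithelial splicing factor, were called highest and stood at or below the value of 1 read in MEF. The mean log2 level of Dazl was 4.90 in F KSR4 and 6.86 in M KSR3, and that of Esrp1 3.61 in M KSR3 and 5.68 in M KSR5, the lowest and highest lines. Against TX 2i ESC, 8 of the 26 were higher and 1 lower, beside 23.0% of all genes called either way. Esrp1 was higher by 3.51 (limma adjusted p = 2.55e-06), Zfp36, which destabilises messages with AU-rich elements, by 1.85 (6.36e-05), and Qk, a splicing regulator, was lower with a difference of -0.59 (0.0182, 0.000953 to 0.0823 over 25 alternatives). Of 8 other HMG proteins, 6 were higher, 1 lower and 1 not called against MEF, with a median of 0.80. Hmgb2 rose by 3.25 and Hmgn5 by 1.85, and Hmgn3 fell by 3.06. Against TX 2i ESC, 3 of the 8 were higher, among them Hmgn3 by 1.29 (adjusted p = 0.0213, 0.00645 to 0.174 over 25 alternatives) and Hmgn5 by 1.08 (0.000825), and Hmgb3 was lower with a difference of -0.64 (0.0164, 0.00394 to 0.0931). Of these 70 genes limma called 0 between F KSR2 and F KSR4 (10 at an unadjusted p under 0.05, and 0 by voom), where 1.14% of all genes were called. Between M KSR3 and M KSR5 it called 4 (Esrp1, Mycn, Rbfox2 and Rbpms2), against 4.48% of all genes. Between sexes it called Hmgb3 alone, against 2.87% of all genes, in the fit that takes libraries of a clone as replicates.

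**Figure D4:**
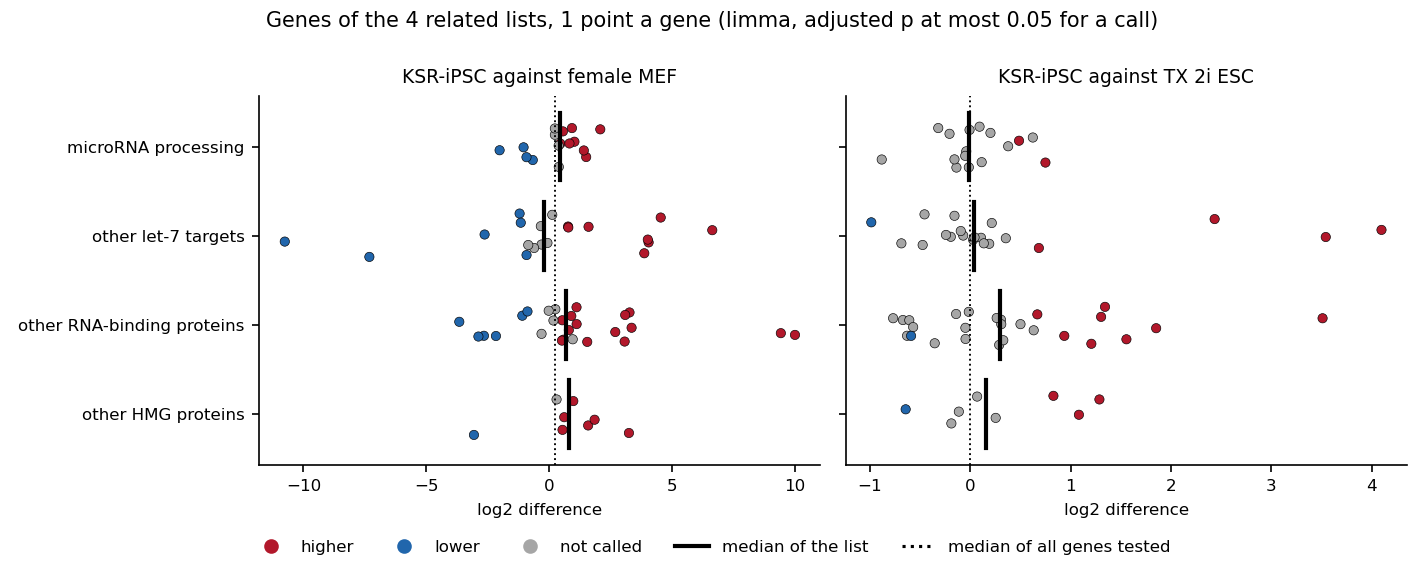
Log2 difference of each gene of the 4 related lists for KSR-iPSC against MEF (left) and against TX 2i ESC (right), with 1 point per gene, red for higher, blue for lower and grey for not called; the solid bar is the median of the list and the dotted line the median of all genes tested. Against MEF the 20 other let-7 targets lie on both sides of 0, with 8 higher and 6 lower.

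The genes whose pattern was most like each member were ranked by Pearson r of log2 level over the 18 libraries, among 14632 genes. The libraries share the contrast between MEF and pluripotent cells, so r is high for many genes and is a description. Lin28a was closest to Usp44 (r = 0.993) and Trp73 (0.992), Lin28b to Polr3g (0.988) and Gm14443 (0.986), and Trim71 to Gm17067 (0.978) and Gm6871 (0.976). L1td1 was closest to EU599041 (r = 0.996) and the pluripotency marker Tdgf1 (0.994), and Igf2bp1 to Gm14412 (0.992) and Gm6871 (0.991). Cdk5r2 had an r of 0.977 with Hmga1. Hmga2 was closest to Adamtsl5 (r = 0.960) and Ssr3 (0.937). Igf2bp2 and Igf2bp3 had no gene as close, with Cnpy3 (0.873) and Rassf4 (0.863) for the first and Nod1 (0.839) and Svil (0.832) for the second.

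Reads over sequence differences between BL6 and CAST give the share of a gene's reads from the maternal BL6 allele. Between 17.7% and 19.9% of reads were informative, so precision rests on far fewer reads than the levels. Shares are the mean ± SD of 3 libraries, set beside the share of the genes within 5 Mb on either side. With 3 libraries against 3, the smallest two-sided p an exact permutation test can give is 0.1, so no test was made. Lin28a, Trim71 and L1td1 had no MEF library with 5 allelic reads, and Lin28b had 1, with 5 of 5 reads maternal.

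The maternal share of Hmga2 was lower in all pluripotent groups than in MEF, by a wider margin than that of the genes around it. In MEF it was 59.3% ± 1.19, with 1047 of 1727, 2291 of 3895 and 2026 of 3471 allelic reads maternal. It was 38.2% ± 3.43 for TX 2i ESC, 23.2% ± 4.50 for M KSR5, 26.9% ± 1.53 for M KSR3, 22.5% ± 8.69 for F KSR4 and 35.1% ± 0.52 for F KSR2. The surrounding genes were at 52.1% to 55.8% in all 6 groups. Every pluripotent library was below every MEF library in the Hmga2 share. In allele-specific RPM, the maternal allele was at 104.6 in MEF and 5.72 to 9.79 in the KSR lines, which is 5.47% to 9.36% of MEF, and at 18.5 (17.7%) in TX 2i ESC. The paternal allele was at 72.6 in MEF, 18.1 to 32.3 in the KSR lines, which is 25.0% to 44.5%, and 28.8 (39.7%) in TX 2i ESC.

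**Figure D5:**
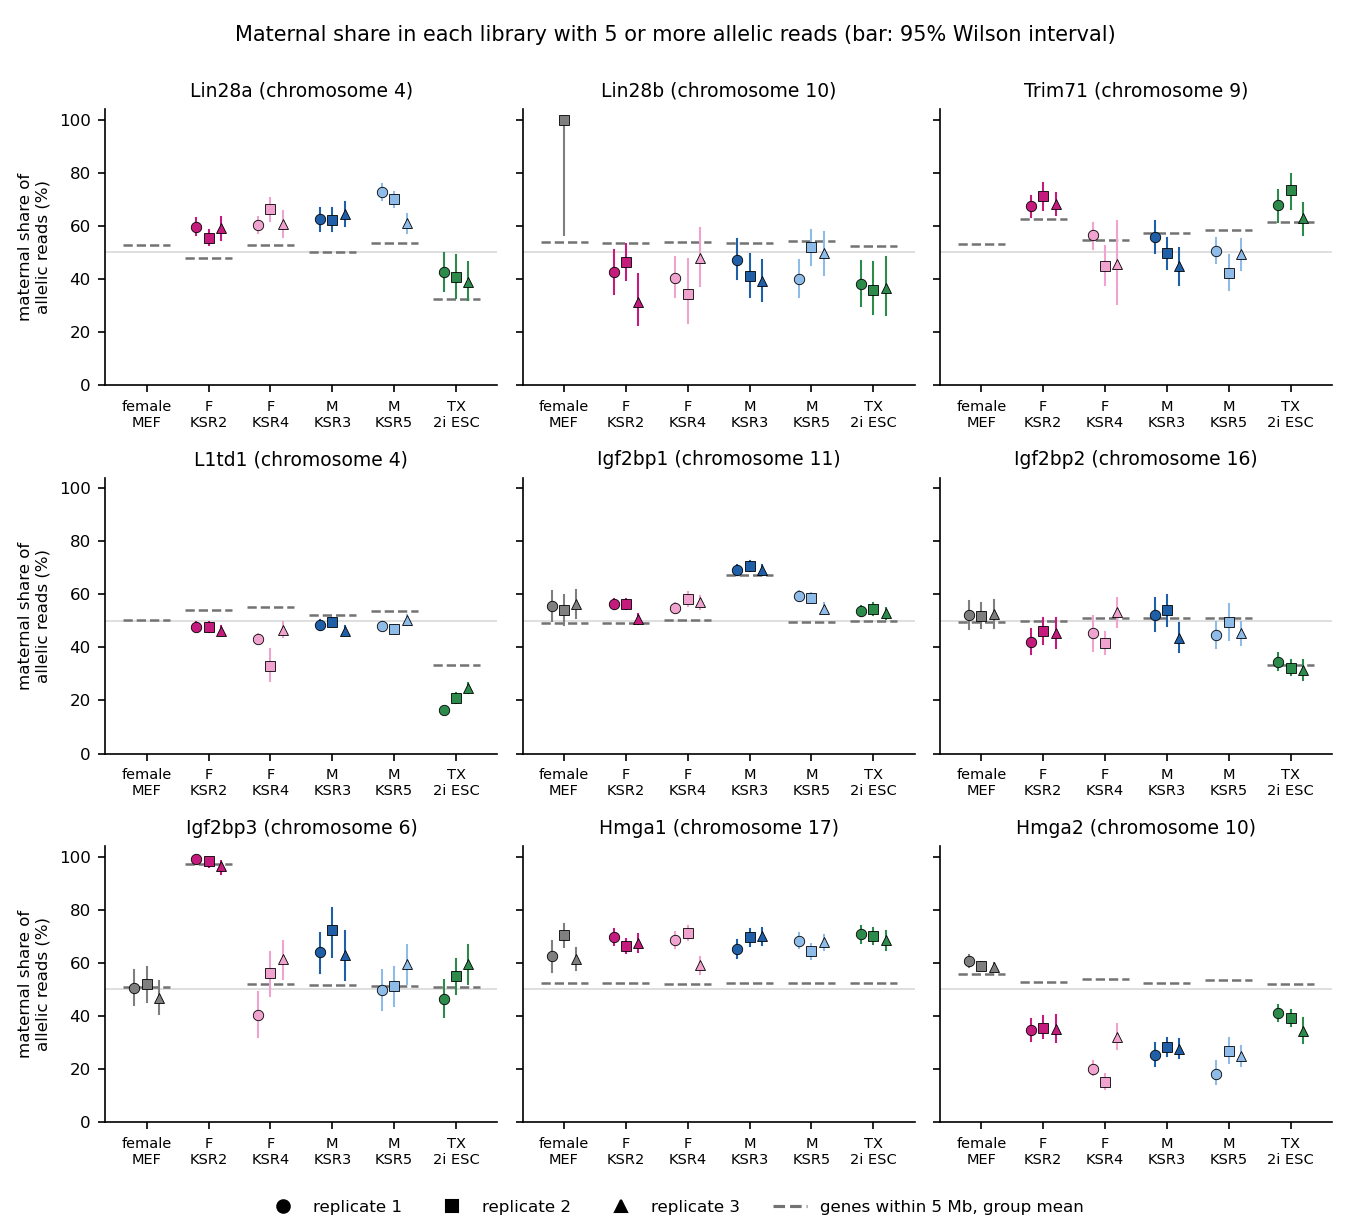
Maternal share of allelic reads of each gene by group, in percent, with a point and its 95% Wilson interval for each library of 5 or more allelic reads; the dashed line is the group mean of genes within 5 Mb. Hmga2 falls below its neighbours in every pluripotent group, while Igf2bp3 in F KSR2 and Igf2bp2 in TX 2i ESC stand with theirs.

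Igf2bp3 was almost wholly maternal in F KSR2, at 98.0% ± 1.32 (389 of 392, 373 of 380 and 228 of 236 reads), and so were its neighbours at 97.1% and all of chromosome 6 at 96.8%. In MEF the Igf2bp3 share was 49.8% ± 2.63. Maternal Igf2bp3 in F KSR2 was at 21.3 allele-specific RPM against 6.72 in MEF, and paternal at 0.389 against 6.79, so the reads of the line with the highest level were nearly all maternal. In M KSR3 the share was 66.5% ± 5.12 with neighbours at 51.8%, and in the other groups it was 52.6% to 53.6%.

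Igf2bp1 was 69.7% ± 0.86 maternal in M KSR3, where its neighbours were at 67.5%, and 53.7% to 57.5% in the other groups. Igf2bp2 was 32.8% ± 1.66 in TX 2i ESC with neighbours at 33.4%, against 52.2% ± 0.31 in MEF. Trim71 was 69.1% ± 1.96 in F KSR2 and 68.0% ± 5.32 in TX 2i ESC, with neighbours at 62.5% and 61.4%. Its mean was below that of its neighbours in F KSR4 (49.0% ± 6.36 against 54.8%), M KSR3 (50.05% ± 5.53 against 57.2%) and M KSR5 (47.4% ± 4.47 against 58.25%). The first F KSR4 library, with 392 allelic reads, was above its neighbours (56.4% against 54.5%), and the third had only 35 such reads. On chromosome 4, L1td1 was 20.6% ± 4.15 in TX 2i ESC with neighbours at 33.4%, and Lin28a 40.7% ± 1.75 with neighbours at 32.6%.

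Lin28a was above its neighbours in each KSR line, with 58.2% in F KSR2 and 68.0% ± 6.15 in M KSR5 against neighbours at 48.0% to 53.6%. Lin28b was below its neighbours, at 40.1% to 47.1% in the KSR lines and 36.9% ± 1.05 in TX 2i ESC against 52.5% to 54.4%. Hmga1 was at 64.8% to 69.8% in every group, MEF included, with neighbours at 51.9% to 52.5%.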

How the data were processed

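RNA-seq libraries of polyadenylated RNA were sequenced, trimmed with Trim Galore (0.6.1) and aligned with HISAT2 (2.1.0), and the authors counted reads per gene in SeqMonk. The deposited values are log2 values of reads relative to the library's total on genes (log2 RPM), with a gene without reads held at 0.9 reads. A supplement of the study names them log2 RPKM, but their low values step in whole reads worth the same for every gene of a library, so they were taken as log2 RPM and divided by exon length only where a level per kb is given. Genes were matched by symbol, and identifiers come from the annotation. Each library has 3 used columns (all reads, maternal BL6 and paternal CAST), and the 18 columns of reads without an informative difference were not used. The authors used edgeR for their own comparisons, which were not used here. Whole reads were recovered from the log2 values within 0.05 reads for at least 99.97% of the values of each library. They gave depth, allelic reads and the voom alternative.

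Tests used limma (3.58.1, R 4.3.3, trend) on the log2 values of genes that exceeded 0 in 3 or more libraries, with a mean per group, in all 18 libraries (12 for female against male). Benjamini-Hochberg adjustment ran over all genes tested. Python 3.11.15, numpy 2.4.6, pandas 2.3.3 and scipy 1.17.1 were used. Maternal shares need 5 allelic reads per library, and a count of 0 was held at a floor of 3 reads. Intervals of maternal shares are Wilson intervals, those of ratios with few MEF reads are exact 95% Poisson intervals, and both cover counting error only.

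Named genes are the 9 members, from the lists (microRNA processing, other let-7 targets, other RNA-binding proteins, other HMG proteins) the up to 2 largest increases and decreases past the threshold against MEF and against TX 2i ESC, and for each member the 2 genes with the most similar pattern, of which 1 is not reported here. Rbfox2, Rbpms2, Mycn, Esrp1 and Hmgb3, named for comparisons between lines, were named after their values were seen. Pluripotency, fibroblast and early lineage markers checked the labels. Members and lists were chosen with earlier results of these data known. Scripts were tested on simulated data. Alternatives were other filters, log2(RPM + 1), median scaling, voom, a replicate block, the line as a random effect or as 1 sample (female against male), 20 allelic reads, each library left out, and both libraries F KSR4 replicate 2 and M KSR5 replicate 3 left out, the last chosen after seeing the data. Methylation amplicon samples were not analysed here.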

Additional observations from a re-analysis of the deposited data

Results flagged for a closer look

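In each of 36 sets, the 6 KSR-iPSC libraries of one sex were compared. A library whose gap to its nearest neighbour exceeded Dixon's 95% limit was singled out. Chance does so in about 1 of 20 sets of independent values from a single distribution. Each set here joins libraries of different clones, so that rate need not hold. The rule left 3 values. L1td1 in F KSR4 replicate 2 had a log2 level of 5.405, where the other 5 female libraries lay between 8.66 and 9.32. In the same library the maternal share of L1td1 was 33.05%, from 79 of 239 allelic reads, and the other 5 were between 43.3% and 47.7%. The maternal share of Hmga2 in M KSR5 replicate 1 was 18.12%, from 54 of 298 reads, with the other 5 male libraries between 24.7% and 28.1%.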

How the results depend on the processing

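Calls of the 9 genes changed little with the processing: 434 repeats of called values kept direction and call, and the 16 that lost the call were all of Igf2bp3 in F KSR2 against F KSR4. That count of 1 became 0 without a filter, with median scaling and with both doubted libraries left out, and was 0 to 4 when each library was left out. In M KSR3 against M KSR5 leaving out libraries gave 0 to 1 calls, and female against male gave 1 call in the fit of all 18 libraries. Small differences that were not called changed sign. Igf2bp1 in KSR-iPSC against TX 2i ESC was 0.025 with median scaling, 0.0032 by voom, 0.042 with both libraries left out and -0.24 to 0.087 with each library left out, where L1td1 was -0.21 to 0.32. Igf2bp2 in F KSR2 against F KSR4 was -0.093 with median scaling and -0.29 to 0.28 with each library left out. Trim71 between sexes was 0.036 with both libraries left out and -0.35 to 0.41 with each left out. The causes were not tested. Over the 45 pairs of libraries with the same replicate number, r had a median of 0.039 (-0.197 to 0.382, 13 above 0.1). Over pairs with different numbers its median was -0.010, and the numbers were not taken to pair libraries. With a replicate block the member counts were 7, 8, 2, 1, 0 and 0, the same as without it, and 282 in place of 167 genes were called between F KSR2 and F KSR4. Depth limits Lin28a, Lin28b, Trim71 and L1td1 in MEF, with 0 to 7 reads per library.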
